A study of Mus musculus with 29 samples.

Results

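The genes described here are 33 mouse genes of cholesterol and fatty acid synthesis, taken from the 56953 features of the gene count table by their Ensembl identifiers. They were listed by name, with earlier results of these data known. Of the 33, 18 encode sterol arm enzymes, 7 of them from acetyl-CoA to farnesyl diphosphate and 11 from squalene to cholesterol. Stard4, a cytosolic sterol transfer protein, is kept apart from the enzymes. The regulators are 5 genes and the fatty acid arm has 9, of which 4 supply acetyl-CoA or NADPH and 5 assemble, elongate or desaturate fatty acids.

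Both arms start from cytosolic acetyl-CoA, which is largely made from citrate that leaves the mitochondria, and both consume NADPH. Their genes are classical targets of the sterol regulatory element binding proteins (SREBPs), membrane-bound transcription factors that Scap escorts from the endoplasmic reticulum to the Golgi when sterols are low and that the Insig proteins hold back when sterols are high. In adipose tissue the fatty acid arm is best known for lipogenesis in mature adipocytes, whereas dividing stromal cells also need sterols and fatty acids for new membranes.

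Crude stromal vascular fraction (SVF) cells of C57BL6/J mice, which hold adipose stem cells alongside other non-adipocyte cells of the fat pad, were grown for 4 days in PM1 medium with 1 nM basic FGF and profiled by bulk Smart-seq3. There were 10 libraries from male and 9 from female inguinal white adipose tissue (iWAT), and 4 from male and 6 from female perigonadal white adipose tissue (pgWAT). All groups received the same medium and growth factor, and the labels give no age. Group sizes follow the labels, and the study's methods count the samples per group differently. Libraries are wells of a plate, and wells of both depots were technical replicates from few independent experiments, so the spread behind every p-value is the spread between wells, which may be technical.

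The promoters of 6 members are shown as examples from the genes called between the depots below. They are one sterol enzyme that was lower in pgWAT (Hmgcs1), 2 that were higher (Ebp, Sc5d), the citrate carrier that was higher (Slc25a1), and the synthase and elongase that were lower (Fasn, Elovl6). Hsd17b7, Scap, Insig2 and Me1 were also called and had promoters in the table used, which are not shown. Each line gives the 250 bases before the RefSeq start (build GRCm38.p6), 5′ to 3′ on the gene's strand. Capitals mark the sterol element TCACNCCAC, the CCAAT box and the GC box GGGCGG, each searched on both strands, so that ATTGG and CCGCCC are the reverse forms.
Hmgcs1: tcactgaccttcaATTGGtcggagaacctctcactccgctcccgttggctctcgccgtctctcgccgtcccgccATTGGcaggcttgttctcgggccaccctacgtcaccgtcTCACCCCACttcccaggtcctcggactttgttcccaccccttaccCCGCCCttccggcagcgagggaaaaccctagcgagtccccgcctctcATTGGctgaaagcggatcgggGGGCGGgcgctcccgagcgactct
Ebp: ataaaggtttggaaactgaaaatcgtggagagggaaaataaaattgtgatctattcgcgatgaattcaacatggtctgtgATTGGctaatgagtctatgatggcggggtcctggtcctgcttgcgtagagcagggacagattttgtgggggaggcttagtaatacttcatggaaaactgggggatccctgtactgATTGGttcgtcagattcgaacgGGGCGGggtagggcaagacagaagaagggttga
Sc5d: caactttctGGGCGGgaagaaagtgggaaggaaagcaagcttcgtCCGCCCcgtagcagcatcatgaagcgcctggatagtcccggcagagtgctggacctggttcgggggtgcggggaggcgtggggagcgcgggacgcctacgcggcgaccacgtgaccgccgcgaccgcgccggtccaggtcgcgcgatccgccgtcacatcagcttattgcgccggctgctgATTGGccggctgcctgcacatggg
Slc25a1: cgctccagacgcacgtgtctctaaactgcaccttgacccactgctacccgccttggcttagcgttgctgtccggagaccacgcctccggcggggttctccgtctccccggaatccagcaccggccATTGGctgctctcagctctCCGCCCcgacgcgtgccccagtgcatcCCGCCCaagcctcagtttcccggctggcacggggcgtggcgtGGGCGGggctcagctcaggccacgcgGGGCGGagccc
Fasn: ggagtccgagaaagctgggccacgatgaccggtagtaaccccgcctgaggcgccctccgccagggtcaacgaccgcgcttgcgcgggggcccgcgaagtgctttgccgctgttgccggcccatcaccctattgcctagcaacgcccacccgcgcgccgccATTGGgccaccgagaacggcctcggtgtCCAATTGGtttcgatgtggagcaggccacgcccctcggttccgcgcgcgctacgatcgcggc
Elovl6: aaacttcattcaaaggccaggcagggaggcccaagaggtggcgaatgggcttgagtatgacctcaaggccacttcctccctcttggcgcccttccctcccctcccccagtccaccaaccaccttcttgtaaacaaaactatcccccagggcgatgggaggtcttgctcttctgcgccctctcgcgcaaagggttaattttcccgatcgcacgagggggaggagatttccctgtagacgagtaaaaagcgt

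These stretches lie at chr13:119690101-119690350 on the plus strand for Hmgcs1, chrX:8193513-8193762 on the minus strand for Ebp and chr9:42264301-42264550 on the minus strand for Sc5d. Slc25a1 lies at chr16:17928220-17928469 and Fasn at chr11:120824548-120824797, both on the minus strand, and Elovl6 at chr3:129532136-129532385 on the plus strand. Hmgcs1 held 1 sterol element beside 3 CCAAT boxes and 2 GC boxes. Slc25a1 held 1 CCAAT box and 4 GC boxes, Fasn held 3 CCAAT boxes (2 of them overlapping) and no GC box, and none of the 3 motifs was found in the Elovl6 stretch.

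A RefSeq promoter was found for 27 of the 33 members, and Fdps, Fdft1, Sqle, Stard4, Scd1 and Scd2 had none in the table used. CCAAT was present in 22 of the 27 genes (81.5%), against 37.5% of all 27025 genes with a promoter. GGGCGG was present in 23 of the 27 (85.2%), against 35.4% of all. The sterol element in this spelling was found in Hmgcs1 alone among the members, against 1.22% of all genes. Among the sterol arm enzymes 14 of 15 genes held CCAAT, with Acat2 the exception, and 14 of 15 held GGGCGG, with Pmvk the exception, whereas each motif was present in 4 of 7 fatty acid arm genes. These are matches of letters and not mapped sites. The background holds all genes with a promoter and not only the genes tested in these cultures. Members had 36 promoters for 27 genes, and all genes 32851 for 27025.

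The libraries held between 315316 and 1102234 assigned counts, so that a floor of 3 counts corresponded to between 2.58 and 9.76 CPM (counts scaled to a common library total). All 19 iWAT libraries matched their sex label by Xist and Y-linked counts, but 5 of the 10 pgWAT libraries did not. These were pgWAT male 2 and 4, with Xist counts of 24 and 60 and Y-linked counts of 1 and 0, and pgWAT female 1, 2 and 3, with Xist counts of 7, 0 and 0 and Y-linked counts of 10, 23 and 26 (libraries are numbered within a group). The 5 mismatching libraries sat in well columns 9 and 10 of the plate and the 5 matching pgWAT libraries in columns 7 and 8, so that within pgWAT the mismatch and the well column cannot be told apart. Depot results of the called members are therefore given with and without these libraries. Fibroblast markers such as Col1a1 and Dcn had counts in all 29 libraries, while the adipocyte markers Adipoq, Plin1, Cidec and Lep were too low to be tested. The other adipocyte markers of the list, Fabp4, Lpl, Cd36, Pparg and Cebpa, had counts in all 29 libraries and were tested.

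The comparison of the depots asked how cultures from iWAT and pgWAT differ. Each arm held members that were higher and members that were lower. The citrate carrier Slc25a1, the malic enzyme Me1 and the desaturases Scd1 and Scd2 were higher in pgWAT, whereas the fatty acid synthase Fasn, the elongase Elovl6, the SREBP escort Scap and the early sterol enzyme Hmgcs1 were lower. In all, 13 of the 31 members that passed the low-count filter had a false discovery rate (FDR) below 0.05 in edgeR's quasi-likelihood F test, 8 higher and 5 lower in pgWAT. That is 41.9%, against a background of 38.1% of the 8853 genes tested (20.1% higher and 17.9% lower), so the share called among the members was near that of all genes. The median log2 fold change of the 31 members was -0.01 against 0.01 for all genes, and the median size of change was 0.20 against 0.32. These are bulk cultures, in which fewer cells of a type and less RNA per cell cannot be told apart. The count of 13 was also found without the 5 mismatching libraries, but then 3 members were higher and 10 lower, against a background of 23.7% (12.2% higher and 11.5% lower). With well column as a factor 9 were called (background 30.6%), and with a fold above 1.5 required beside the FDR 6 were called (background 23.8%).

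**Figure D1:**
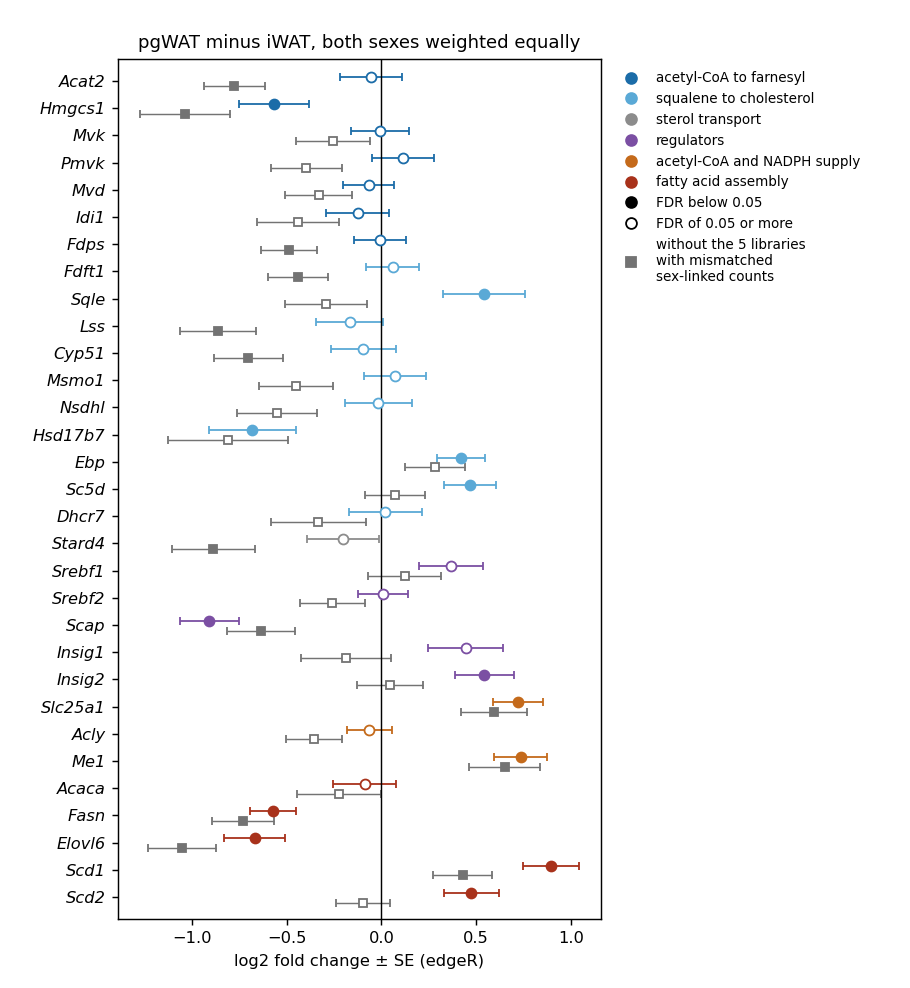
Log2 fold change (pgWAT minus iWAT, both sexes weighted equally, horizontal axis) ± SE from edgeR for the 31 tested members, coloured by role, filled where the FDR was below 0.05. Grey squares give the fit without the 5 pgWAT libraries whose sex-linked counts do not match the label, in which most sterol arm genes lie further left, while Slc25a1 and Me1 stay right of 0 and Scap, Fasn and Elovl6 left of it.

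In the sterol arm, 5 of the 17 tested enzymes were called in the fit to all libraries (29.4%), below the 38.1% of all genes, 3 higher and 2 lower. The median change size was 0.10 against 0.32 for all genes. Without the 5 mismatching libraries the enzymes called were Acat2, Hmgcs1, Fdps, Fdft1, Lss and Cyp51, all lower. The background of that fit was 23.7% of all genes (11.5% lower), so the standing of the arm against all genes depended on these libraries. Hmgcs1, which makes the HMG-CoA from which the mevalonate route proceeds, was between 82.2 and 259 CPM in the 19 iWAT libraries (median 141) and between 38.9 and 178 CPM in the 10 pgWAT libraries (median 96.5). The ranges overlapped, but 8 of 10 pgWAT libraries lay under the iWAT mean, and the fitted log2 difference was -0.57 ± 0.18 (SE; FDR = 0.0146). It was -1.04 without the mismatching libraries and -0.32 when the model included the well column (FDR = 0.277), and an antisense gene overlaps 12.1% of the Hmgcs1 exon bases. Hsd17b7, a sterol ketone reductase later in the route, was also lower, with iWAT between 12.7 and 44.8 CPM (median 25.01) and pgWAT between 8.30 and 26.0 CPM (median 17.2). All 10 pgWAT libraries were below the iWAT mean, and the log2 fold change was -0.68 ± 0.23 (FDR = 0.0193). The call was lost without the mismatching libraries (-0.81, FDR = 0.0628) and in the model that adds the well column (-0.52, FDR = 0.132).

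The 3 sterol enzymes that were higher in pgWAT act after squalene. Ebp, the sterol isomerase, ranged from 29.1 to 75.7 CPM in iWAT (median 50.9) and from 52.6 to 102 CPM in pgWAT (median 66.1). Only 1 pgWAT library was below the iWAT mean, and the log2 fold change was 0.42 ± 0.13 (FDR = 0.0093). Sc5d, the sterol desaturase near the end of the route, ranged from 41.5 to 126 CPM in iWAT (median 67.4) and from 62.5 to 140 CPM in pgWAT (median 94.4). Its log2 fold change was 0.47 ± 0.14 (FDR = 0.00653), and the iWAT mean was exceeded in 8 pgWAT libraries out of 10. Sqle, the squalene epoxidase, ranged from 38.0 to 108 CPM in iWAT (median 74.0).

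In pgWAT, Sqle was at 34.7, 190, 27.8 and 165 CPM in male libraries 1 to 4, and between 74.98 and 128 CPM in the 6 female libraries. The highest and the lowest values of Sqle in the whole set were thus among the 4 pgWAT male libraries, and the 2 high ones were the libraries with Xist counts. The log2 fold change of 0.54 ± 0.22 (FDR = 0.047) was the one nearest the threshold, and the call held in 11 of the 29 fits that left out 1 library. Without the 5 mismatching libraries Sqle was at -0.29 and none of the 3 was called, with Ebp at 0.28 and Sc5d at 0.07. The other 12 tested sterol enzymes, among them the mevalonate and farnesyl enzymes Mvk, Pmvk, Mvd, Idi1 and Fdps, had log2 fold changes between -0.17 and 0.11 and were not called. Tm7sf2, a sterol reductase that was not tested, was between 1.96 and 13.1 CPM in iWAT and between 0 and 22.5 CPM in pgWAT, at or near the floor of 3 counts in many libraries.

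Among the regulators, Scap differed most. It was between 75.8 and 213 CPM in iWAT (median 135) and between 46.7 and 102 CPM in pgWAT (median 59.9). All 10 pgWAT libraries were below the iWAT mean and 6 were below every iWAT library, a log2 fold change of -0.91 ± 0.15 (FDR = 1.49e-05). The 6 libraries were the 5 mismatching ones, at 46.7 to 60.8 CPM, and pgWAT male 1 at 59.0 CPM, whereas the other 4 matching libraries, at 86.1 to 102 CPM, lay inside the iWAT range. Without the mismatching libraries the log2 fold change was -0.63 ± 0.18 (FDR = 0.00952), but Scap was then not called within male or within female labels alone. With the sexes weighted equally, Scap was called in all 8 alternative fits and in all 29 fits without 1 library. An antisense gene overlaps 13.2% of its exon bases, and whether the counting used strand is not given in the sources used here. Insig2, which retains Scap in the endoplasmic reticulum, ranged from 27.0 to 61.2 CPM in iWAT (median 38.4) and from 27.8 to 105 CPM in pgWAT (median 60.4). Its log2 fold change was 0.54 ± 0.16 (FDR = 0.00619), with 1 pgWAT library below the iWAT mean, but without the mismatching libraries the value was 0.04.

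The other 3 regulators were not called between the depots. Insig1, which acts beside Insig2 and is itself an SREBP target, had a median of 24.8 CPM in iWAT (15.2 to 53.3) and 41.9 CPM in pgWAT (13.9 to 60.5), with a log2 fold change of 0.44 ± 0.20 (FDR = 0.0721). Srebf1, the SREBP gene best known for the fatty acid arm, had a median of 74.1 CPM in iWAT (33.9 to 118) and 100 CPM in pgWAT (45.1 to 137), with 0.37 ± 0.17 (FDR = 0.0876). Srebf2, the SREBP gene best known for the sterol arm, had nearly equal medians of 126 and 125 CPM, with a log2 fold change of 0.01 ± 0.13 (FDR = 0.967) and a sign that changed with the scaling. With both sexes weighted equally, the messenger of the escort protein thus differed between the depots while neither SREBP gene passed the test. Within male labels Srebf1 passed the test (0.69 ± 0.25, FDR = 0.0462). That call was lost with well column as a factor and without the mismatching libraries. It was also lost when pgWAT male 2 or pgWAT male 4, which are mismatching, was left out.

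The fatty acid arm held the larger depot differences, with 6 of 8 tested genes called (75%, against 38.1% of all genes), 4 higher and 2 lower, and a median change size of 0.62 against 0.32 for all genes. Slc25a1, which exports citrate from mitochondria, was between 25.4 and 80.3 CPM in iWAT (median 46.3). In pgWAT it was at 62.5, 67.4, 29.2 and 69.6 CPM in the male libraries and between 97.5 and 130.1 CPM in the female libraries (median 114). The 6 pgWAT female libraries were all above every iWAT library, whereas the male ones lay within the iWAT range. The log2 fold change was 0.72 ± 0.13 with the sexes weighted equally (FDR = 5.31e-05), 1.04 ± 0.17 within female labels (FDR = 2.16e-05) and 0.40 ± 0.20 within male labels (FDR = 0.167). The difference between these 2 depot contrasts did not pass the interaction test (FDR = 0.485). Without the mismatching libraries the value with the sexes weighted equally was 0.59.

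Me1, a cytosolic malic enzyme that yields NADPH, was between 17.0 and 54.1 CPM in iWAT (median 26.6) and between 36.5 and 63.7 CPM in pgWAT (median 49.4). All 10 pgWAT libraries were above the iWAT mean, and the log2 fold change was 0.73 ± 0.14 (FDR = 8.04e-05), although 42.2% of the 31-base words of the Me1 transcripts also occur in other annotated genes, so that reads may have been split. Without the mismatching libraries Me1 was at 0.65. Acly, which cleaves the exported citrate to acetyl-CoA, was not called at -0.06 ± 0.12 (FDR = 0.716). Acss2, which makes acetyl-CoA from acetate, did not pass the filter and was between 4.52 and 15.5 CPM in iWAT and between 1.74 and 25.9 CPM in pgWAT.

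Fasn, which builds palmitate from malonyl-CoA, was lower in pgWAT. It was between 127 and 313 CPM in iWAT (median 206) and between 101 and 214 CPM in pgWAT (median 126), with 9 of 10 pgWAT libraries under the iWAT mean and 5 under every iWAT library. The log2 fold change was -0.57 ± 0.12 (FDR = 0.000352), and -0.73 without the mismatching libraries. Elovl6, which extends palmitate, was between 32.99 and 69.1 CPM in iWAT (median 56.1) and between 16.7 and 55.3 CPM in pgWAT (median 33.8). Again 9 of 10 pgWAT libraries lay under the iWAT mean, and the log2 fold change was -0.67 ± 0.16 (FDR = 0.00115), and -1.05 without the mismatching libraries. Acaca, which makes malonyl-CoA and feeds Fasn, was not called at -0.09 ± 0.17 (FDR = 0.712), and 56.8% of its 31-base words also occur in another annotated gene.

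The desaturases, which place a double bond in the products of Fasn and Elovl6, were higher in pgWAT. Scd1 was between 76.1 and 253 CPM in iWAT (median 160). In pgWAT it was at 316, 441, 233 and 365 CPM in the male libraries and at 397, 352, 341, 188, 200.1 and 137 CPM in female libraries 1 to 6. The 3 female libraries with matching sex-linked counts, numbers 4 to 6, lay inside the iWAT range, and the first 3 above it. The log2 fold change was 0.89 ± 0.15 (FDR = 9.14e-06), and 0.43 without the 5 mismatching libraries, where it was still called.

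Scd2 was the more abundant of the pair. It was between 260 and 604 CPM in iWAT (median 302). In pgWAT it was at 321, 690 (libraries 1 and 2), 164 and 709 CPM (libraries 3 and 4) in males and between 407 and 669 CPM in females (median 467). The 4 pgWAT male libraries again held both the lowest and the highest value of the set. The log2 fold change was 0.48 ± 0.15 (FDR = 0.0102), but -0.10 without the mismatching libraries, and the call was lost when pgWAT male 2 or pgWAT male 4 was left out (0.36 and 0.33). Scd1 made up between 21.7% and 40.0% of the summed CPM of the pair in iWAT (median 32.96%) and between 25.1% and 58.7% in pgWAT (median 38.1%), so that these ranges overlapped for most libraries.

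**Figure D2:**
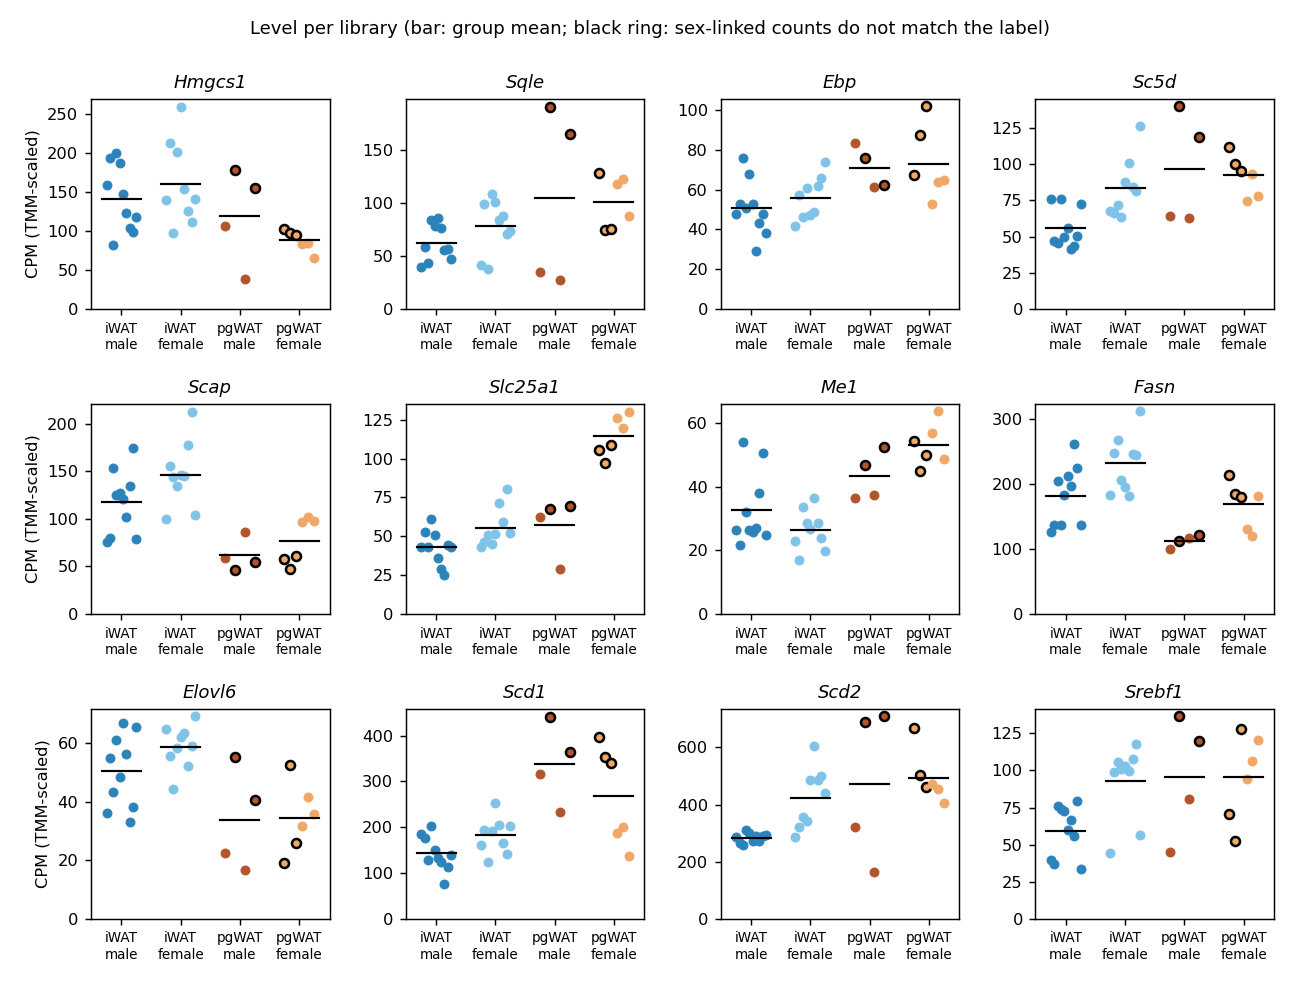
CPM (vertical axis, from 0) of 12 members in each of the 29 libraries by group, with a bar at the group mean and a black ring around the 5 pgWAT libraries whose sex-linked counts do not match the label. The ringed libraries hold the highest Sqle and Scd2 values. Scap lies below the mean of all iWAT libraries in each pgWAT library, though most unringed ones are inside the iWAT range. Fasn lies below that mean in 9 of 10 pgWAT libraries.

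Per kilobase of the longest coding transcript, Fdps, which makes farnesyl diphosphate, had the highest level in both depots, with a mean of 268 CPM per kb in iWAT and 270.3 CPM per kb in pgWAT, although 89.7% of its 31-base words occur in other annotated genes and its level is therefore uncertain. Acat2, which joins the first acetyl-CoA units, had 67.4 and 65.5 CPM per kb, with 50.5% of its 31-base words shared with Acat3. Scd2 had 64.3 and 88.9 CPM per kb, so that it was below Acat2 in iWAT and above it in pgWAT. The level of Scd1 was near that of Acly in pgWAT, with 61.5 against 58.7 CPM per kb, and below it in iWAT, with 33.4 against 61.8 CPM per kb. Acaca at 3.97 and 3.86 CPM per kb and Acss2 at 3.43 and 3.91 CPM per kb were the lowest in the fatty acid arm.

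The sum over the 18 sterol arm enzymes spread most in pgWAT. It was at 1172, 2289, 773 and 2152 CPM in pgWAT male libraries 1 to 4, and from 1400 to 2039 CPM in pgWAT female libraries (median 1606). The 5 libraries with mismatching sex-linked counts had sums from 1731 to 2289 CPM, and the 5 matching ones from 773 to 1480 CPM. The iWAT sums ran from 1086 to 1831 CPM in males and from 1276 to 2033 CPM in females. The sum over the 9 fatty acid arm genes gave the same division in pgWAT. It ran from 1504 to 1848 CPM in the mismatching and from 836 to 1277 CPM in the matching libraries. Scd2 and Scd1 had the largest means in this sum, at 485 and 297 CPM in pgWAT. Slc25a1 did not divide this way. Its level was at most 69.6 CPM in mismatching pgWAT male 2 and 4 and at least 97.5 CPM in the matching pgWAT females.

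**Figure D3:**
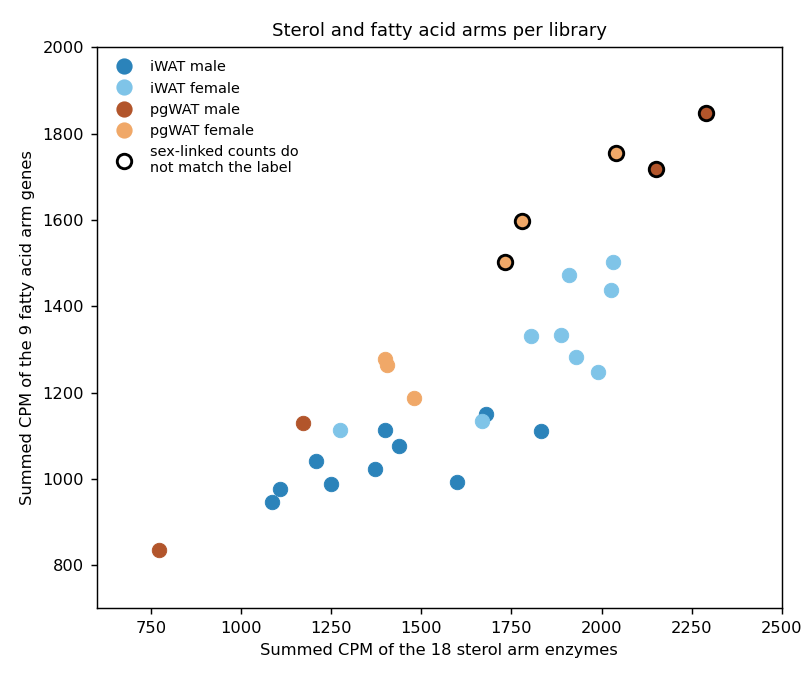
Summed CPM of the 18 sterol arm enzymes (horizontal axis) against summed CPM of the 9 fatty acid arm genes (vertical axis), one point per library, coloured by group. The 5 ringed pgWAT libraries, whose sex-linked counts do not match the label, lie at the upper right, and the lowest point is pgWAT male 3 at 773 and 836 CPM.

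The direction of the sterol arm between the depots depended on which libraries were used. Without the 5 mismatching libraries, 24 of the 31 members were below 0 and their median was -0.36, against -0.03 for all genes. The 10 members then called lower were Acat2, Hmgcs1, Fdps, Fdft1, Lss, Cyp51, Stard4, Scap, Fasn and Elovl6, with log2 fold changes from -0.44 (Fdft1) to -1.05 (Elovl6). The 3 called higher were Slc25a1 at 0.59, Me1 at 0.65 and Scd1 at 0.43. Within well column 8, which held 3 iWAT female and 3 pgWAT female libraries, all matching their label, 8 members were called against a background of 14%. Of these, Slc25a1 at 0.81 and Me1 at 0.95 were higher (background 8.25%), and the 6 lower ones were Acat2, Hmgcs1, Fdps, Stard4, Scap and Fasn (background 5.74%). There Scd1 was at 0.06 ± 0.18 (FDR = 0.870), and the median of the tested members was -0.34.

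Within well column 9, which held 3 iWAT male libraries and the 2 mismatching pgWAT male libraries, 16 of 33 members were called against a background of 23.2%, and 14 of them were higher in pgWAT (background 12%). Sc5d at 1.39, Sqle at 1.32, Insig2 at 1.30, Scd1 at 1.63 and Scd2 at 1.35 were among these, as was Tm7sf2, which passed the filter there, at 1.80 ± 0.63 (FDR = 0.0491). Scap at -1.29 and Fasn at -0.82 were the 2 lower ones (background 11.3%). Scap and Fasn were thus lower and Slc25a1 higher in these 3 fits and in the fit to all libraries.

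By labelled sex, 7 of 31 members were called within male labels (22.6%, background 20.3%) and 7 within female labels (background 26.8%). Within male labels Sc5d, Srebf1, Insig2, Scd1 and Scd2 were higher (background 11.8%) and Scap and Fasn lower (background 8.53%), but leaving out pgWAT male 2 or pgWAT male 4, both mismatching, gave 4 and 3 called members. Within female labels Slc25a1, Me1 and Scd1 were higher (background 14.2%), and Hmgcs1, Scap, Fasn and Elovl6 lower (background 12.6%), and with well column as a factor 4 were called (background 19.2%). The interaction of depot and labelled sex was called for none of the 31 members in edgeR (background 0.181%) and for none in DESeq2 (background 0.418%). In edgeR 4 members had an unadjusted p below 0.05, as did 772 of the 8853 genes. Without the mismatching libraries the interaction was called for 1 member, Sqle (background 2.56%).

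Other cell populations and proliferation moved with the depot. Of 12 proliferation markers 10 were lower in pgWAT, with sums from 710 to 1588 CPM against 1386 to 2171 CPM in iWAT. Of 7 tested macrophage markers 5 were higher, and their sums ran from 762 to 8085 CPM in pgWAT, with pgWAT male 1 and 3 at 7497 and 8085 CPM, against 656 to 2528 CPM in iWAT. Mural markers (3 of 3 tested, Acta2, Tagln and Mylk), fibroblast markers (5 of 6) and mesothelial markers (3 of 4, with Krt19 lower) were higher in pgWAT. The mural markers Rgs5, Kcnj8 and Abcc9, too low to be tested, had lower means in pgWAT within each sex label. Rgs5 was at 6.11 and 2.13 CPM in pgWAT males and females, against 9.72 and 5.65 CPM in iWAT. Myh11, also untested, had higher means in pgWAT. Lpl and Cd36 were higher in pgWAT among the 5 tested adipocyte markers, of which Pparg was lower. Of 3 tested endothelial markers 1 was higher and neither of the 2 tested epithelial markers was called. Their part in the depot differences of the members was not tested.

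The comparison of the sexes was made in iWAT, where all labels matched. Levels were lower in males for nearly all members, but no single member passed the test. Of the 31 members 29 had a log2 fold change below 0 (male minus female), the exceptions being Hsd17b7 at 0.14 and Me1 at 0.26. Their median was -0.35 against 0.01 for all genes. None was called in edgeR's test, against a background of 3.22%, while 17 had an unadjusted p below 0.05, as did 1413 of the 8853 genes. Neither arm stood apart, with a median of -0.41 over the 17 sterol enzymes and -0.29 over the 8 fatty acid genes.

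The members nearest the threshold were Sc5d, Scd2 and Srebf1. Sc5d was between 41.5 and 75.8 CPM in males (median 50.1) and between 63.1 and 126 CPM in females (median 81.4), with a log2 fold change of -0.56 ± 0.16 (FDR = 0.0503). Scd2 was between 260 and 310 CPM in males (median 289) and between 287 and 604 CPM in females (median 442), with -0.58 ± 0.17 (FDR = 0.0572). Srebf1 was between 33.9 and 79.2 CPM in males (median 63.1) and between 44.5 and 118 CPM in females (median 101), with -0.65 ± 0.20 (FDR = 0.0656). In each of these the male and female ranges overlapped, but all 10 male libraries lay below the female mean, which also held for Acat2, Fdps, Lss and Stard4. Srebf2 was at -0.40 ± 0.15 (FDR = 0.161), Insig1 at -0.31 ± 0.23 (FDR = 0.564) and Scd1 at -0.34 ± 0.18 (FDR = 0.351). Hence both SREBP genes pointed the same way as the enzymes, without passing the test.

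The count of calls depended on the fit. With the 19 iWAT libraries alone, 7 members were called, all lower in males, against a background of 5.74% (3.35% lower), and these were Acat2, Fdps, Fdft1, Sc5d, Stard4, Srebf1 and Scd2. DESeq2 on all libraries called 3 (background 4.43%), edgeR called 2 with well column as a factor (background 5.6%) and 5 without the mismatching pgWAT libraries (background 5.84%). Within well column 7, with 7 male and 4 female libraries, none was called (background 2.66%) and 30 of 32 tested members were below 0, with a median of -0.33. In the fits without 1 library, 29 of 31 members were below 0 every time and between 0 and 4 were called. The summed CPM of the 5 fatty acid assembly genes ran from 660 to 741 CPM in males and from 721 to 1102 CPM in females.

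**Figure D4:**
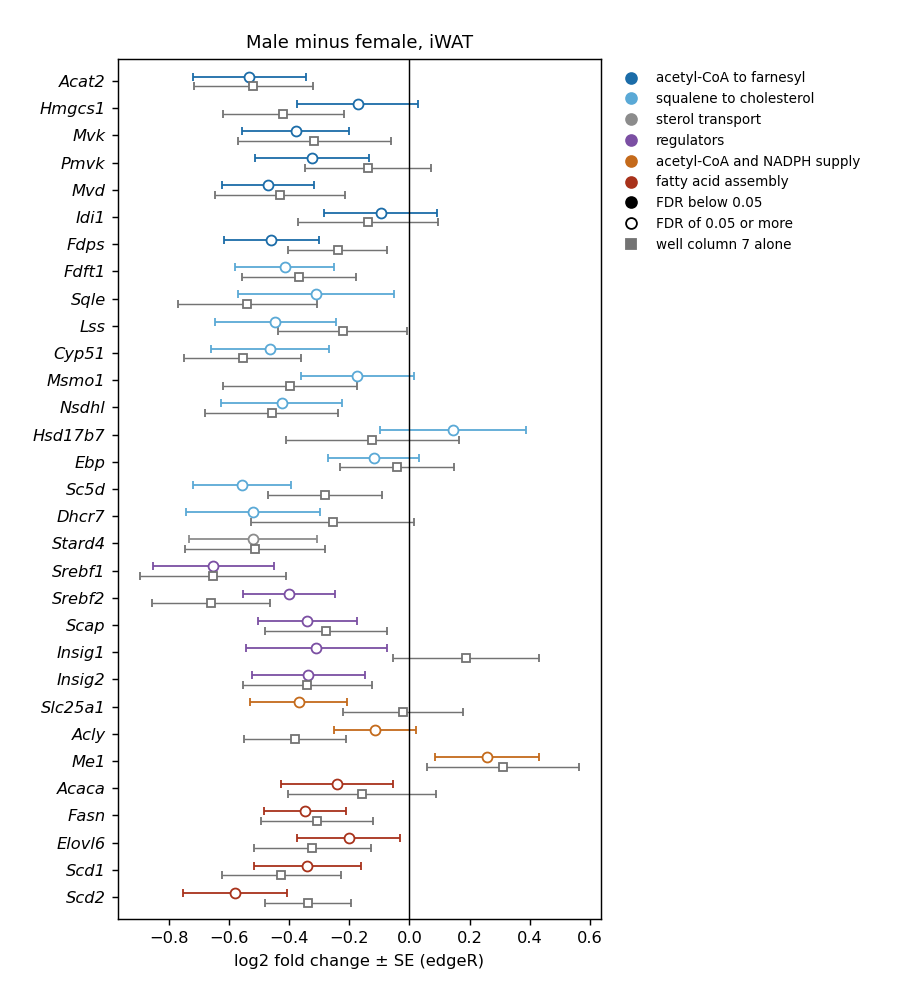
Log2 fold change (male minus female, iWAT, horizontal axis) ± SE from edgeR for the 31 tested members, coloured by role, all open because no FDR was below 0.05. Grey squares give well column 7 alone, and in both fits nearly all points lie left of 0.

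Markers of other cells differed between the iWAT sexes as well. Of 5 tested adipocyte markers 4 were higher in males (Fabp4, Lpl, Cd36 and Pparg), with sums over the list from 705 to 1170 CPM in males and from 264 to 583 CPM in females. Macrophage sums were from 1457 to 2528 CPM in males and from 656 to 1136 CPM in females, and 2 of 7 tested markers were called. The epithelial keratins Krt8 and Krt18 were lower in males, where the list summed to between 0 and 8.31 CPM against 31.7 to 1409 CPM in females. Of the tested mural and fibroblast markers, 2 of 3 (Acta2 and Tagln) and 2 of 6 were lower in males. The untested mural markers Rgs5, Kcnj8 and Abcc9 had higher means in males, and Myh11 a lower one. No proliferation marker of 12 was called. Their part in the lower levels of the members was not tested.

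In pgWAT the labelled sexes gave no called member in edgeR (background 0.0113%) and 1 call (Slc25a1) in DESeq2 (background 0.181%). In edgeR Slc25a1 and Fasn had an unadjusted p below 0.05, as did 739 of the 8853 genes. Slc25a1 was at -1.01 ± 0.22 (FDR = 0.132), and every male library was below every female library, at no more than 69.6 CPM against at least 97.5 CPM. Fasn was at -0.56 ± 0.20 (FDR = 0.409), with the male libraries at 101, 112, 117 and 121 CPM and the female ones between 120.0 and 214 CPM. As 2 of the 4 male and 3 of the 6 female libraries did not match their label, these values compare labels rather than sexes. With the 5 matching libraries alone, 2 male and 3 female, 4 members were called, namely Sqle, Lss, Slc25a1 and Scd2, all lower in males, against a background of 5.63% (2.46% lower). The matching males, pgWAT male 1 and 3, held 3711 and 4948 counts of the macrophage marker Lyz2. Matching females 4 to 6 held 433, 375 and 195. Sex and macrophage content therefore cannot be told apart in these 5 libraries, and the part of the latter was not tested.

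Sterol genes varied together between wells of the same group. After group means were removed, the median Pearson r over the 136 pairs of sterol arm enzymes was 0.467 across the 29 libraries, with 131 pairs above 0, whereas the median over all pairs of tested genes was near 0 (-0.00091). The fatty acid arm was less uniform, with a median of 0.186 over its 28 pairs, and pairs across the arms had 0.322. The points share plate, depth differences and, in pgWAT, the division by well column. Within pgWAT the sterol median was 0.695 over 10 libraries, and 0.309 without the mismatching ones. Within iWAT it was 0.356 over 19 libraries.

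Single members stood at different places in this pattern. Fdft1, which commits farnesyl diphosphate to squalene, had the highest median r with the sterol arm, at 0.705. Of its 31-base words 36.8% also occur in other annotated genes, and antisense Ctsb overlaps 18.3% of its exon bases. Scd2, a fatty acid desaturase, followed at 0.646, close to Fdps at 0.639 and Acat2 at 0.638 and above Scd1 at 0.483. This order was that of pgWAT, where Scd2 was at 0.887, and within iWAT Scd2 at 0.219 was below Scd1 at 0.440. Stard4 was at 0.570 and Insig1 at 0.428. Fasn at 0.0125 and Me1 at -0.0768 were near 0, and Scap at -0.252 was the lowest. Within pgWAT, where the well columns divide the group, Scap was at -0.641, while within iWAT it was at 0.00853 and Me1 at -0.214 and Fasn at -0.142 were lower.

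**Figure D5:**
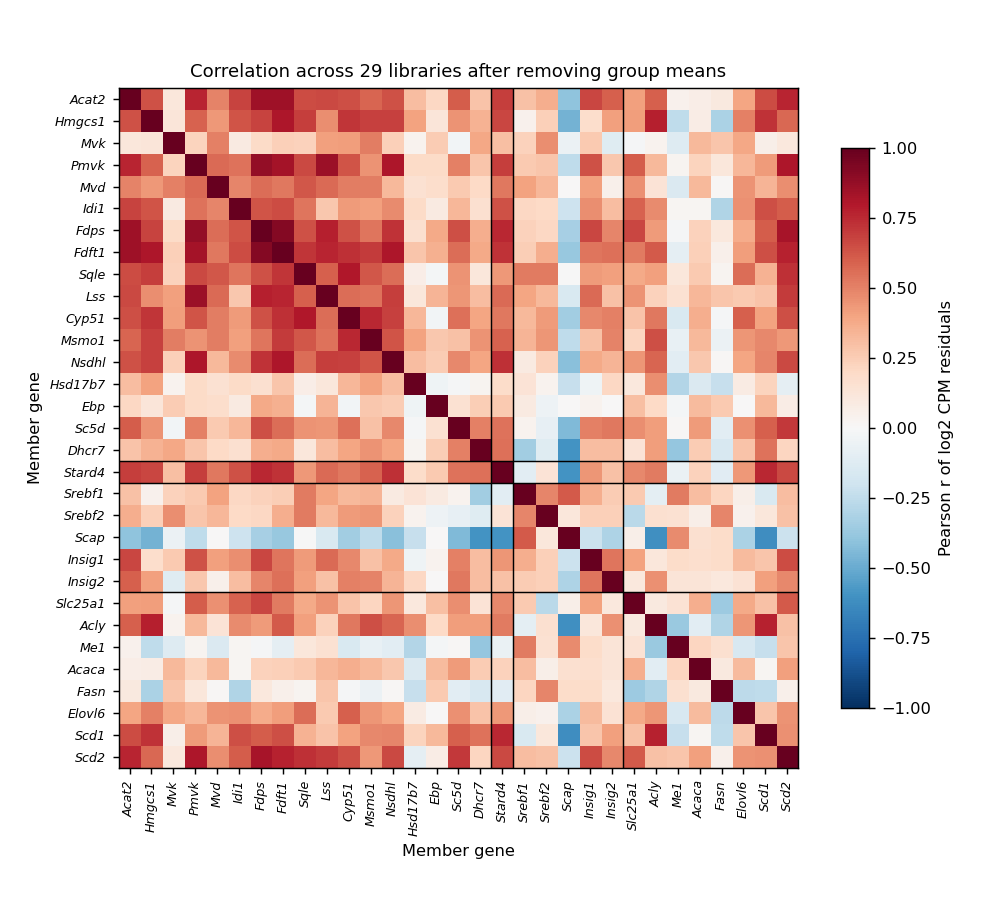
Pearson r of log2 CPM after removal of group means, for all pairs of the 31 tested members across 29 libraries, with lines between sterol arm enzymes, Stard4, regulators and the fatty acid arm. The sterol block is mostly positive, as are most of its pairs with Scd2 and Scd1, whereas Scap, Me1 and Fasn have medians of -0.252, -0.0768 and 0.0125 with it.

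Other genes of these pathways were counted from 4 lists, against the backgrounds of 38.1% called between depots (20.1% higher, 17.9% lower) and 3.22% between the iWAT sexes. Sterol handling genes, which export, store, take up or sense sterols, gave 8 higher and 1 lower of 13 tested in pgWAT (69.2%), with Ch25h, the cholesterol hydroxylase, at 1.37 and Soat1, which esterifies cholesterol, at -0.35. Of 12 further fatty acid genes 4 were higher (33.3%) and none lower, led by Fads2, a polyunsaturated fatty acid desaturase, at 0.78. Of 8 further genes of sterol control 3 were called (37.5%), 2 of them higher, led by Rnf139 at 0.92. Rnf139 had between 1 and 27 counts per library, at or near the floor of 3 counts in many libraries. Of 7 further isoprenoid and sterol enzymes, Lbr, a sterol reductase of the nuclear envelope, was lower at -0.52 and the only one called (14.3%). The shares called in the last 3 lists were thus at or below the background. Between the iWAT sexes, 2 of 13 sterol handling genes were higher in males, led by Nr1h3, the sterol-sensing nuclear receptor, at 1.504, and 2 of 12 fatty acid genes were lower, led by Fads2 at -0.80, whereas none of the sterol enzymes or control genes was called.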

How the data were processed

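RNA of 29 cultured crude SVF samples was sequenced by the authors with Smart-seq3. Per the study's methods and the submitters' processing notes, reads were quantified with Salmon (v1.9.0) on GRCm39 transcripts, reads with and without molecular identifiers together. For these cultures the methods set a cut on the genes detected per library, and they count 29 samples both before and after it. The deposited values are expected counts per gene, of which 96.5% were whole within a tolerance of 1e-06. They were rounded to whole counts. Symbols came from GENCODE and matched 52029 of 56953 identifiers, and 0.439% of counts fell on unmatched ones.

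Genes were filtered with filterByExpr on the 4 groups, which left 8853, scaled by TMM (factors 0.949 to 1.06) and tested with edgeR's quasi-likelihood F test (v4.0.16, R v4.3.3) in a model with 1 mean per group over all 29 libraries. FDR is the Benjamini-Hochberg value over all tested genes, with calls below 0.05. DESeq2 (v1.42.0) and limma-voom (v3.58.1) were alternatives, and the steps were tested on simulated counts. CPM used TMM-scaled totals and correlations used log2 CPM with a prior count of 2. Floors of 3 counts cover counting error only. No pair of libraries with the same group label agreed within sampling noise, and pairs across groups were not compared. Values per library are given for members called between depots or iWAT sexes and for Srebf1, Srebf2, Insig1, Scd1 and Scd2. From each pathway list the called gene with the largest change in each direction is named, except for a result that is not reported here. Other genes named in alternatives were chosen after their values were seen. Members and lists were chosen with earlier results of these data known.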

Additional observations from a re-analysis of the deposited data

Results flagged for a closer look

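Of 72 sets of values checked, each a member or arm in 1 group, 4 held a library that stood far from the rest of its group by Dixon's criterion, and chance gives about 1 in 20. Insig1 was lowest in iWAT male 8 at 15.2 CPM, with the next library at 23.1 CPM. Insig1 was also lowest in pgWAT female 5 at 17.8 CPM, with the next at 41.2 CPM. Scd2 was highest in pgWAT female 1 at 669 CPM, with the next at 505 CPM, and this library had both Xist and Y-linked counts. The summed sterol arm enzymes were lowest in iWAT female 1 at 1276 CPM, with the next at 1668 CPM.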

How the results depend on the processing

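No paired analysis was possible because the labels name wells and give no replicate numbers. Between depots, the count of 13 called members was 10 to 15 when 1 library was left out, with 5 to 10 higher and 5 lower, and 6 with a fold above 1.5 (3 higher, 3 lower). With well column as a factor, 3 were lower. The fits without the 5 pgWAT libraries of mismatching sex-linked counts were chosen after seeing the data. They gave 3 higher and 10 lower, with Sqle at -0.29 and Scd2 at -0.10, within male labels Insig2 at -0.051 and Scd2 at -0.26, and within female labels Scd1 at -0.044. Slc25a1, Me1, Scd1, Scap, Fasn and Elovl6 were called in all 8 alternatives and all 29 fits without 1 library. Male labels gave 16 calls within column 9 and 3 to 9 without 1 library (4 without pgWAT male 2, 3 without pgWAT male 4), and female labels gave 4 with well column as a factor and 6 to 8 without 1 library.

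For iWAT sex, calls were 1 with unscaled totals, 5 without a filter, 3 in DESeq2, 2 with well column as a factor, 7 with iWAT alone, 5 without the mismatching libraries and 0 to 4 without 1 library (4 without iWAT female 1). For pgWAT labels, 1 member was called without a filter, in DESeq2 and in limma-voom, 4 without the mismatching libraries and 0 to 1 without 1 library. The interaction gave 1 call without the mismatching libraries and 0 without any 1 library. Without the mismatching libraries the median r was 0.334 within the sterol arm, 0.309 for it in pgWAT and 0.284 for the fatty acid arm in pgWAT. The cause of these shifts was not tested. With 315316 to 1102234 counts per library, Tm7sf2 and Acss2 did not pass the low-count filter in the fit to all libraries.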
